A study of Rattus norvegicus with 113 samples.

Results

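Voltage-gated ion channels and their close relatives are described here through the messenger RNA of the genes that build them, measured on arrays of rat hippocampus and cortex after traumatic brain injury (TBI). Members were chosen by name alone: every probe whose RefSeq-mapped rat symbol begins with Kcn or Cacn, belongs to the Hcn genes, or belongs to the Scn genes of sodium channel alpha and beta subunits, without Kcnj10 and Kcnj13. Of 139 rat symbols that match, 131 had a probe, on both array designs, among 16575 named genes on the larger design and 15631 on the smaller one. The probe of a gene that was brightest on average stands for it. Of the 131, 108 were detected, meaning that in 1 group or more the scanner software placed the probe well above background on each array. The rule itself used no difference between groups, but it was set with earlier results of these data known.

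Adult male Sprague-Dawley rats had a parasagittal fluid percussion injury through an opening on the right side of the skull (TBI), the identical surgery without the injury (sham), or no anesthesia and no surgery (naive). The labels call the injury moderate and the study's methods call it severe. RNA of the whole hippocampus, or of a small piece of cortex near the injury site, was hybridized with a single dye to 113 arrays, 1 per rat and tissue, at 24 hr, 2 weeks, 3 months, 6 months or 12 months (1 year in the labels). Each group held 4 rats, except the hippocampus at 24 hr, with 2 sham rats, 3 TBI rats and no naive rat analysed here. The smaller design served the hippocampus at 24 hr and 3 months (17 arrays) and the larger one everything else (96 arrays), and levels were not compared between designs.

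Voltage-gated sodium channels start and carry the action potential, potassium channels repolarize the membrane and set its resting level, and calcium channels couple the spike to transmitter release, dendritic signals and gene expression. HCN channels pass a depolarizing current at negative voltages and set the rhythm of firing, and auxiliary subunits place the pores in the membrane and shape how they open and close. Most of these genes are known from neurons, but some potassium channels are used by glia and immune cells: Kcnn4 encodes the calcium-activated channel of intermediate conductance, known from lymphocytes and microglia, Kcnk13 encodes a tandem-pore channel that carries a resting potassium current of microglia, and Kcnk6 encodes a tandem-pore channel known from macrophages.

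Promoter sequence is shown for 4 members whose levels carry the results below, to give the context in which they are transcribed. Kcnk13 rose after injury, and Kcnip2, Hcn2 and Scn2a were lower in at least 1 comparison. Hcn2 was also higher in operated than in naive hippocampus at 6 months. Each run is the 250 bases before the annotated start on the gene's own strand, from RefSeq on the rat build GRCr8, and capitals mark a GC box (GGGCGG, or CCGCCC on the other strand). Kcnk13 lies at chr6:124971559-124971808 (plus strand), Kcnip2 at chr1:254613899-254614148 (minus strand), Hcn2 at chr7:10639458-10639707 (minus strand) and Scn2a at chr3:70710706-70710955 (plus strand).
Kcnk13: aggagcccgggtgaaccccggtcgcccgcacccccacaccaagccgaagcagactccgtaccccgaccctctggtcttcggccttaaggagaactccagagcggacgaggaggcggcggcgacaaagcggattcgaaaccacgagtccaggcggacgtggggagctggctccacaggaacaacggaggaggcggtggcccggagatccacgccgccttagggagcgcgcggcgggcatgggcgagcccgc
Kcnip2: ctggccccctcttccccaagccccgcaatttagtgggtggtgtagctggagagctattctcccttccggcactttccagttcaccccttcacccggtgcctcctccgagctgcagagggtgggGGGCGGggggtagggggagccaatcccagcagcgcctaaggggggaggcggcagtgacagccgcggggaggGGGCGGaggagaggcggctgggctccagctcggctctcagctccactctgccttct
Hcn2: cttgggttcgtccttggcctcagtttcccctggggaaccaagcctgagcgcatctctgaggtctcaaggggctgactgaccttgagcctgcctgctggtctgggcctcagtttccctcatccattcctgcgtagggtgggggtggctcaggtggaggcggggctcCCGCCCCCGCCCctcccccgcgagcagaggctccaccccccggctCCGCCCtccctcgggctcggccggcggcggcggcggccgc
Scn2a: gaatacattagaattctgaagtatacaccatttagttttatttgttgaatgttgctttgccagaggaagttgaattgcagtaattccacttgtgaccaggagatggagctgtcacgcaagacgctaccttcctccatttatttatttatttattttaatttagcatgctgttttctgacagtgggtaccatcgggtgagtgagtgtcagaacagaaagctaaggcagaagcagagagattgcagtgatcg
Kcnip2 held 2 GC boxes and Hcn2 held 3, while Kcnk13 and Scn2a held none. The GC content was 69.6% for Kcnk13, 68.0% for Kcnip2, 71.6% for Hcn2 and 39.6% for Scn2a. The table holds this window for 86 of the 131 members. A GC box on either strand was in 47.7% of those 86 windows and in 32.4% of all 27457, and TATAAA was in 3.49% against 13.1%. CCAAT was in 17.4% of the members' windows against 34.3% of all windows, and the AP-1 letters TGANTCA were in 3.49% against 6.36%. The cyclic AMP response element TGACGTCA was in 0% of the members' windows and in 1.70% of all windows. The median GC content was 61.0% for members and 52.0% for all windows. These are matches of letters and not sites of a factor.

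Levels below are log2 of the background-subtracted signal minus the median of the array, so 1 unit is a factor of 2, and a level says nothing about another probe. A gene is called where the Benjamini-Hochberg adjusted p from limma, over all probes tested in that comparison, was under 0.05. Counts with single arrays left out are given without the share of all probes. They show only how stable a count was. In bulk tissue, fewer cells of a type and less RNA per cell cannot be told apart. Per array, the share of probes well above background ran from 41.2% to 93.0%, with a median of 56.0%. The third sham array of the cortex at 2 weeks stood apart with 93.0%. Its median signal was 1806, against 40.4, 39.3 and 44.0 on the other arrays of its group. In the hippocampus at 6 months the second naive array had 72.4% and the fourth had 41.2%. Every group lay on a single slide. TBI and sham shared a slide in 5 of 10 comparisons, sham and naive in 4 of 9, and TBI and naive in 0 of 9, and elsewhere slide and group cannot be told apart. Neuron markers such as Rbfox3 and Snap25 and microglia markers such as Aif1 were detected in both tissues at every interval.

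Among the comparisons of TBI, sham and naive rats within a tissue, channel genes were called most often at 24 hr. Against sham, 15 of 90 tested channel genes were called in the hippocampus at 24 hr, and 4 of 102 at 2 weeks. The plot of called shares sets each comparison beside all probes. Limma called none against sham in the cortex at any interval, or in the hippocampus at 3, 6 or 12 months, with the counts at an unadjusted p given for each below. Against naive rats, 36 of 104 were called in the cortex at 24 hr. TBI vs sham and TBI vs naive use the same TBI arrays and are not independent of each other.

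**Figure D1:**
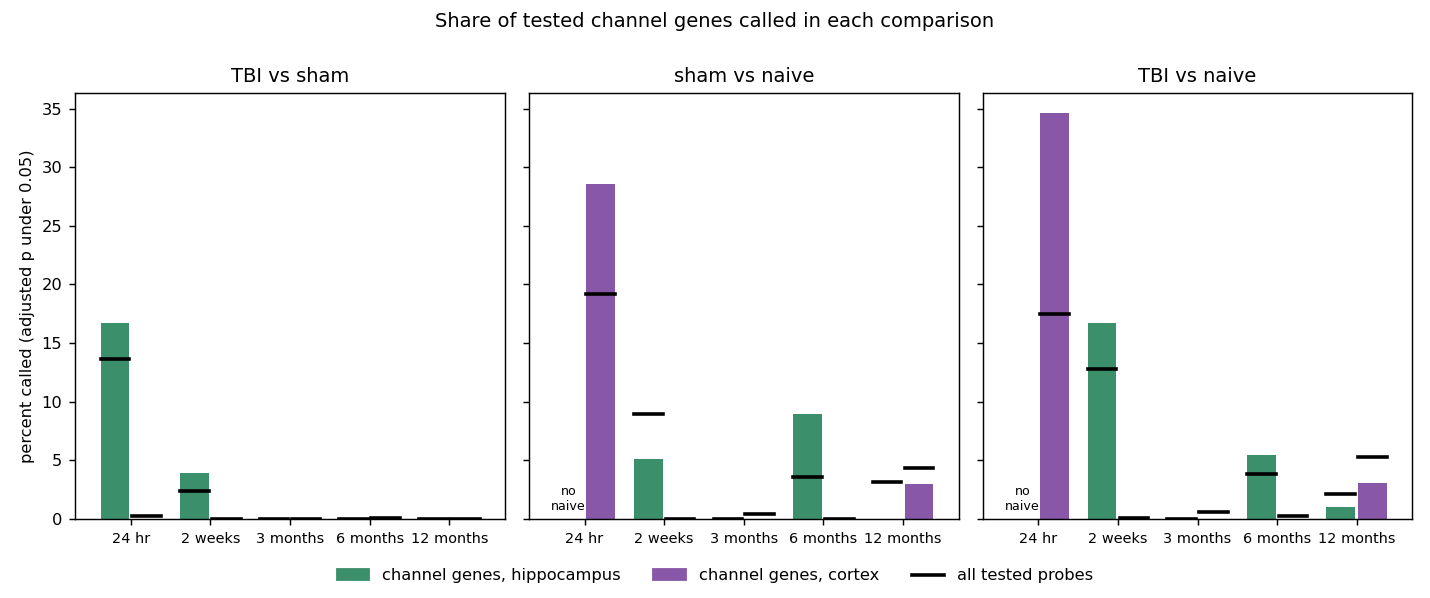
Percent of tested channel genes called by limma (adjusted p under 0.05) in each comparison, by interval and tissue, with a black line for the share of all tested probes. The channel genes' share, among the comparisons plotted, was highest in the cortex at 24 hr for TBI against naive (34.6%, all probes 17.5%), and no naive hippocampus at 24 hr was analysed here.

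In the hippocampus at 24 hr, 3 potassium channels rose and 12 channel genes fell. All 3 that rose are potassium channels known outside neurons. The 12 that fell spanned pores of potassium, sodium and calcium channels and their auxiliary subunits. Together they were 16.7% of the channel genes tested, against 13.6% of all probes, so the share itself lay near the background. By direction, 3.33% of channel genes rose against 5.57% of all probes, and 13.3% fell against 8.07%. The median difference over the 90 genes was -0.28, against -0.02 over all probes, and 67 of the 90 lay below 0. TBI and sham arrays did not overlap for 40 of the 90 (44.4%), against 50.2% of all probes.

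Kcnn4 had levels of 2.94, 1.83 and 1.35 in the TBI arrays and -2.62 and -0.10 in the sham arrays, of which the lower one was not well above background. All 3 TBI arrays lay above both sham arrays. The fitted difference was 3.4 ± 0.79 (SE; limma, adjusted p = 0.0399). Kcnn4 entered this test through the TBI group, where it was high, and since 1 of the 2 sham arrays gave only a dim signal, the size of its rise is uncertain. Kcnk13 stood at 3.10, 2.84 and 2.73 after TBI and at 2.17 and 1.96 after sham. Again the groups did not overlap, and the rise was 0.83 ± 0.17 (limma, adjusted p = 0.0288). Kcnk6 was 1.62, 1.81 and 1.46 after TBI against 1.08 and 0.69, a rise of 0.74 ± 0.18 (limma, adjusted p = 0.0489). Of the 12 microglia and macrophage markers tested, 3 rose, and the log2 of their summed signal was 9.60 to 10.22 after TBI and 9.07 to 9.28 after sham; their part in these rises was not tested.

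Among the pores that fell, Cacna1i, a low-voltage-activated (T-type) calcium channel, was at 3.62, 3.45 and 3.27 after TBI and at 4.54 and 4.66 after sham. The gap between the groups was wider than the spread within either, and the fall was 1.15 ± 0.16 on the log2 scale (limma, adjusted p = 0.00959). Kcnh4, a voltage-gated channel of the ether-a-go-go family, was 1.14, 1.38 and 1.27 after TBI and 2.15 and 2.36 after sham, a difference of -0.99 ± 0.15 (limma, adjusted p = 0.0134). Kcnq1, a slowly activating voltage-gated pore, differed by -1.02 ± 0.25 (limma, adjusted p = 0.0461), but it was well above background in 1 of 3 TBI arrays, so that its difference rests on dim signals.

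Sodium channel pores had a median difference of -0.62 over 4 tested genes, the lowest of the 12 families. Scn1a, a pore prominent in inhibitory interneurons, was 4.99, 5.10 and 5.35 after TBI and 5.85 and 5.73 after sham, and the 2 groups did not overlap. It fell by 0.64 on the log2 scale (SE 0.16, limma adjusted p = 0.0496). Scn8a, the pore concentrated at the axon initial segment and the nodes of Ranvier, fell by 0.70 (SE 0.17, limma adjusted p = 0.0475). Scn2a differed by -0.30 and Scn3a by -0.60, neither called. Of the beta subunits, which modulate and anchor the pores, Scn4b fell by 0.84 (SE 0.20, limma adjusted p = 0.0428), while Scn2b (-0.61) and Scn3b (-0.48) were not called.

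Calcium channel pores fell in 3 of 8 cases. Besides Cacna1i these were Cacna1c, an L-type channel (-0.79 ± 0.19, limma adjusted p = 0.0435), and Cacna1b, the N-type channel of presynaptic terminals (-0.77 ± 0.15, limma adjusted p = 0.0232). Cacna1a (0.03), the P/Q-type channel, Cacna1e (0.07), the R-type channel, and Cacna1g (-0.08), another T-type channel, were not called. Cacng2, or stargazin, which carries AMPA receptors to the synapse, fell by 0.57 (SE 0.13, limma adjusted p = 0.0395). Cacng3 (-0.41) and Cacng8 (-0.53) of the same kind were not called, and Cacnb4 had a difference of 0.80 that did not pass the test. Kcnab1, a cytoplasmic beta subunit of voltage-gated potassium channels, fell by 0.83 (SE 0.16, limma adjusted p = 0.0247), and Kcnk1, a tandem-pore channel, by 0.80 (SE 0.15, limma adjusted p = 0.0232). None of the 9 inward rectifiers was called. The values by family at 24 hr are plotted for both tissues.

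**Figure D2:**
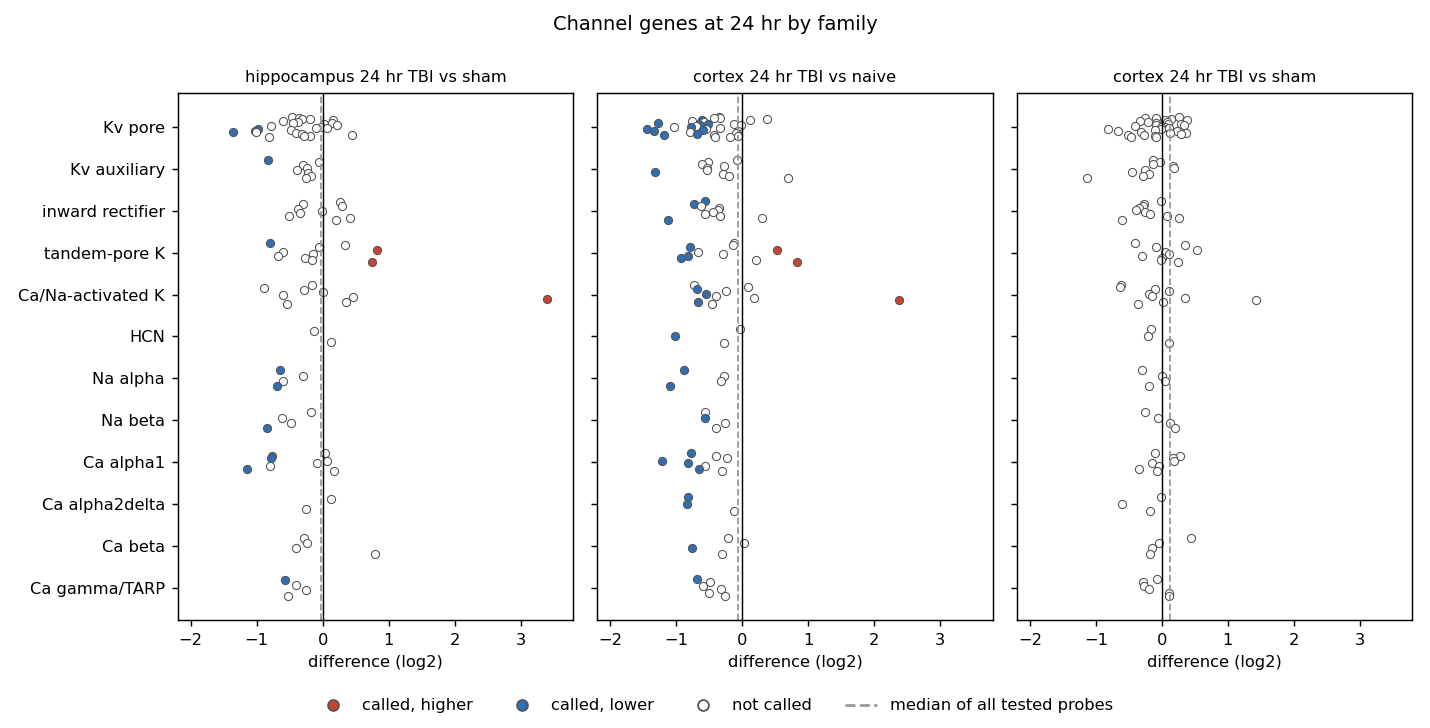
Log2 difference of each tested channel gene at 24 hr, by family, in the hippocampus (TBI against sham) and the cortex (TBI against naive and against sham), with filled points for genes called by limma and a dashed line at the median of all tested probes. In the hippocampus 3 genes were called higher and 12 lower, in the cortex against naive 3 higher and 33 lower, and against sham 0.

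These hippocampal calls rest on 5 arrays. With the 75th percentile in place of the median, 14 were called (3 higher, 11 lower) and 16.4% of all probes, of which 12 were among the 15, and the calls of Kcnq1 (adjusted p = 0.0712 by limma), Scn8a (adjusted p = 0.0555) and Scn1a (adjusted p = 0.0697) were lost. Leaving out either sham array left 1 call, and leaving out TBI array 1, 2 or 3 left 3, 2 or 11. TBI and sham lay on different slides and were scanned on different days, so slide, scan day and injury cannot be told apart in them.

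In the cortex at 24 hr the calls against naive rats were mostly of lower levels. After TBI, 33 of 104 channel genes fell and 3 rose, which is 34.6% against 17.5% of all probes. The share that fell was 31.7% against 11.1%, and the share that rose was 2.88% against 6.38%. The median difference was -0.47, against -0.07 over all probes, and 93 of the 104 genes lay below 0. Against sham, 0 of 104 were called by limma, while 0.217% of all probes were, and 9 channel genes (8.65%) against 20.8% of all probes had an unadjusted p under 0.05. TBI and sham arrays did not overlap for 2 of the 104 (1.92%), against 11.7% of all probes. Leaving out the third TBI array gave 2 calls against sham. TBI lay on another slide than sham and naive, so slide and injury cannot be told apart in both comparisons.

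Kcnn4, Kcnk6 and Kcnk13 rose here against naive, as they did in the hippocampus against sham. Kcnn4 was 3.64, 2.96, 1.41 and 3.90 after TBI, 1.00, 2.19, 0.61 and 2.39 after sham, and 0.65, 0.61, 0.22 and 0.93 in naive rats. Every TBI array lay above every naive array, whereas TBI and sham overlapped. The difference was 2.37 ± 0.52 against naive (limma, adjusted p = 0.0131) and 1.43 ± 0.52 against sham (adjusted p = 0.148). Kcnk6 was 2.67, 2.87, 2.22 and 2.75 after TBI and 1.70, 1.59, 1.94 and 1.99 in naive rats, a rise of 0.82 ± 0.16 (limma, adjusted p = 0.00921). Sham arrays of Kcnk6, at 2.40, 2.59, 2.38 and 2.18, also lay above all naive arrays, by 0.58 ± 0.16 (limma, adjusted p = 0.0247). Kcnk13 was 2.93, 2.79, 2.81 and 2.84 after TBI, above all sham and naive arrays, which reached 2.54 and 2.56. Its difference was 0.53 ± 0.13 against naive (limma, adjusted p = 0.0218), and 0.53 ± 0.13 against sham with an adjusted p of 0.0787. Microglia and macrophage markers rose in 7 of 12 cases after TBI against naive (summed signal 9.91 to 10.40 against 9.0 to 9.32), and their part in these rises was not tested.

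Voltage-gated potassium channel pores fell in 11 of 32 cases, a share close to that of all channel genes. Kcng4, a silent subunit that forms channels only with other pores, was 1.77, 2.24, 2.5 and 1.41 after TBI, 3.21, 2.45, 2.69 and 2.84 after sham, and 3.20, 3.61, 3.37 and 3.54 in naive rats. TBI and naive arrays did not overlap, and the difference was -1.45 ± 0.23 (limma, adjusted p = 0.00747). Kcnh4 (-1.33 ± 0.29, adjusted p = 0.0124 by limma) and Kcns1, another silent subunit (-1.19 ± 0.34, adjusted p = 0.0353 by limma), fell as well. Kcnc1 (-0.62), Kcnd2 (-0.64) and Kcnq3 (-0.69) fell by less, and Kcna1 (-0.35), Kcna2 (-0.34) and Kcnc2 (-0.58) were not called.

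Kcnip2, whose protein binds the pores of the A-type potassium current, was the single one called of 10 auxiliary subunits of voltage-gated potassium channels. It was 6.15, 6.82, 7.06 and 6.17 after TBI, 7.48, 6.60, 7.16 and 6.79 after sham, and 7.67, 7.83, 7.75 and 8.23 in naive rats. No operated array reached the lowest naive array, and the difference after TBI was -1.32 ± 0.25 (limma, adjusted p = 0.00873). Hcn2 was 2.67, 3.32, 3.64 and 2.87 after TBI, 3.68, 3.13, 3.24 and 3.30 after sham and 4.42, 4.13, 3.99 and 4.02 in naive rats. Both operated groups lay below the naive one, by 1.02 after TBI (-1.02 ± 0.21, limma adjusted p = 0.0103) and 0.80 after sham (-0.80 ± 0.20, adjusted p = 0.0204). With the 75th percentile the call of Hcn2 after sham was lost (limma, adjusted p = 0.096). Kcnj9, a G-protein-gated inward rectifier, was 1.64, 2.31, 2.07 and 1.53 after TBI against 2.86, 2.73, 3.20 and 3.28 in naive rats, a difference of -1.13 ± 0.21 (limma, adjusted p = 0.00866). The plot of 5 genes in the cortex at 24 hr shows these arrays.

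**Figure D3:**
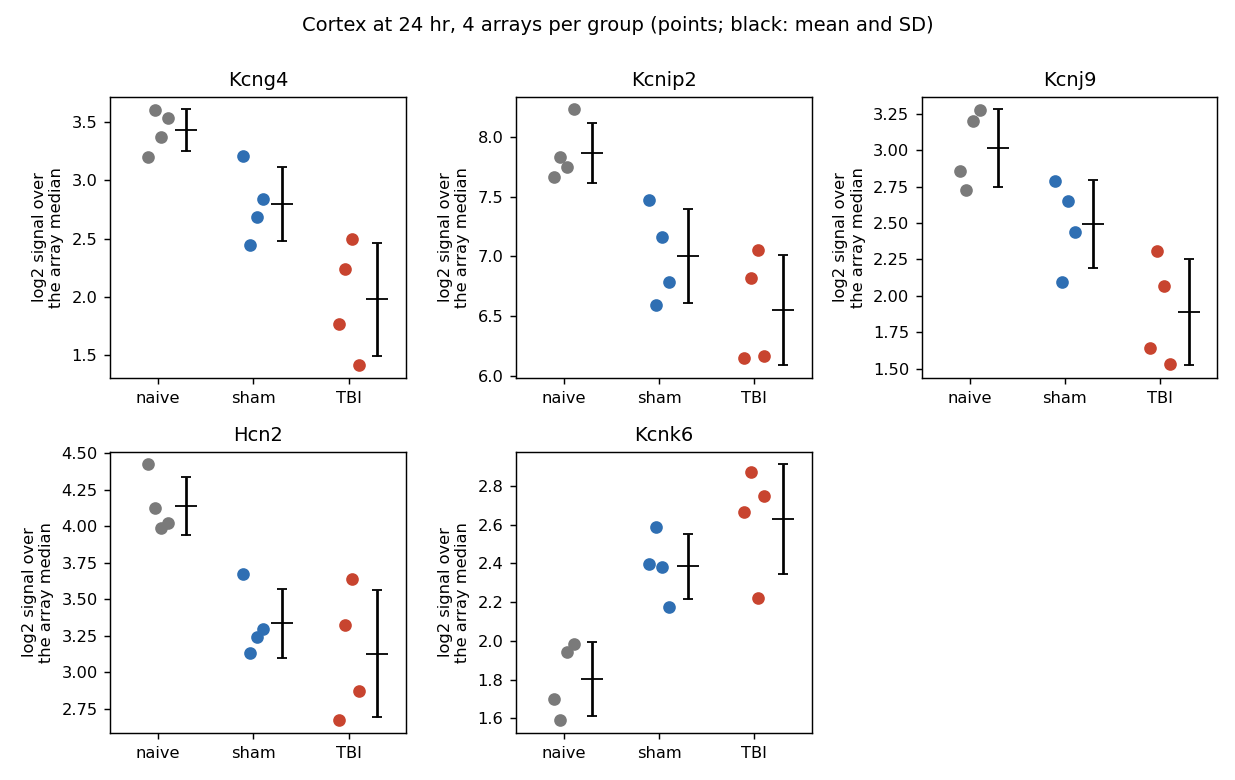
Log2 level over the array median of 5 channel genes in the cortex at 24 hr, 1 point per array (4 each of naive, sham and TBI rats), with the mean and SD in black. Kcng4, Kcnip2, Kcnj9 and Hcn2 were lower after TBI than in every naive array, and Kcnk6 was higher.

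Sodium and calcium channel genes followed in the cortex. Scn8a fell by 1.09 (SE 0.19, limma adjusted p = 0.00834) and Scn1a by 0.88 (SE 0.22, limma adjusted p = 0.021), while Scn2a (-0.28) and Scn3a (-0.33) were not called. Of the beta subunits, Scn2b fell by 0.57 (SE 0.12), and Scn3b (-0.25) and Scn4b (-0.40) were not called. Calcium channel pores fell in 4 of 8 cases, Cacna1e by 1.21, Cacna1g by 0.82, Cacna1a by 0.77 and Cacna1i by 0.65. Cacna1c was not called here (-0.23). Cacna2d1 (-0.82) and Cacna2d2 (-0.83), accessory subunits that bring the pores to the surface and bind gabapentin, fell, as did Cacnb3 (-0.76) and Cacng2 (-0.69). Of the calcium-activated potassium channels, Kcnn1 fell by 0.54, and Kcnma1 (-0.73), the large-conductance channel, did not pass the test. Neuron markers fell in 5 of 13 cases (summed signal 11.75 to 12.28 after TBI, 12.24 to 12.36 in naive rats), and their part in the lower channel levels was not tested.

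Sham surgery alone was followed by 28 calls of 98 in the cortex at 24 hr, 27 lower and 1 higher (28.6% against 19.2% of all probes). Among the largest differences from naive were those of Cacna1e (-1.40), Kcnq3 (-0.98), Kcnk4 (-0.92) and Scn8a (-0.90). Neuron markers fell in 6 of 13 cases in this comparison, which was made within 1 slide. How far this holds depends on the scaling: the median of all probes lay at -0.20 with arrays scaled to their median and at -0.02 with the 75th percentile, and under the latter 3 channel genes were called, 1 higher (Kcnk6) and 2 lower (among them Cacna2d1), and 1.76% of all probes. By limma the adjusted p was then 0.0628 for Cacna1e, 0.0563 for Kcnq3, 0.0559 for Kcnk4 and 0.0805 for Scn8a. After TBI the 75th percentile gave 35 calls (3 higher, 32 lower, all probes 16.1%), and another background correction (normexp) gave 21 (4 higher, 17 lower). TBI and sham share the naive arrays in these comparisons. Leaving out naive array 2 or 4, or TBI array 1 or 4, gave 19, 22, 16 and 16 calls after TBI. For sham, leaving out naive array 2, 3 or 4 gave 17, 18 and 15 calls, and sham array 2 or 4 gave 16 and 13.

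At 2 weeks the hippocampus held 4 calls against sham of 102 (3.92%, all probes 2.41%), in a comparison made within 1 slide. Kcnn4 was 1.05, -0.19, 2.44 and 2.51 after TBI and -0.62, -1.06, -0.87 and -0.58 after sham, of which -0.87 was not well above background. The TBI arrays lay above the sham arrays but were spread widely, and the fitted rise was 2.23 ± 0.52 (limma, adjusted p = 0.05), in a test that Kcnn4 entered through the TBI group. Scn1a was 5.44, 5.17, 4.94 and 5.38 after TBI and 5.63, 5.85, 5.78 and 5.78 after sham. All TBI arrays were lower, by 0.53 in the mean (-0.53 ± 0.12, limma adjusted p = 0.0487). Scn2a, the pore of excitatory axons, was 7.51, 7.41, 7.42 and 7.49 against 7.68, 7.82, 7.87 and 7.72, a difference of -0.32 ± 0.07 (limma, adjusted p = 0.0447).

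More members were apart than were called at that interval: TBI and sham arrays did not overlap for 36 of 102 channel genes (35.3%), against 17.7% of all probes. Under the 75th percentile the call of each of the 4 was lost (adjusted p of 0.0518 for Kcnn4, 0.0831 for Scn1a and 0.0947 for Scn2a), and 2 others were called instead (all probes 1.83%), both higher, Kcnk13 (0.68 ± 0.14, limma adjusted p = 0.0424) and Kcnj5, a G-protein-gated inward rectifier (1.05 ± 0.23, adjusted p = 0.0493). Kcnk13 was 2.84, 2.64, 2.90 and 3.25 after TBI, above all sham arrays at 2.27, 2.43, 2.40 and 2.22. Leaving out the second TBI array gave 8 calls, the first sham array 3, the first TBI array 1, and each of the other arrays 0. Microglia and macrophage markers rose in 11 of 12 cases, with summed signals of 9.31 to 10.35 against 8.66 to 9.0, and their part in the rise of Kcnn4 and Kcnk13 was not tested. Neuron markers fell in 1 of 13 cases.

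In the cortex at 2 weeks 0 of 94 channel genes were called against sham by limma (0.00848% of all probes), and 2 had an unadjusted p under 0.05, against 4.05% of all probes. Those were Kcnn4 and Kcnj5. Kcnn4 was 2.67, 3.11, 2.73 and 3.76 after TBI and 0.75, 0.47, 1.81 and 0.86 after sham, where 0.47 was not well above background. The groups did not overlap, and the fitted difference was 2.10 ± 0.47 with an adjusted p of 0.22, again with Kcnn4 tested through the TBI group. Kcnj5 was 2.47, 2.52, 2.19 and 2.45 after TBI and 0.94, 0.43, 1.13 and 1.14 after sham. Its difference was 1.5 ± 0.37 (limma, adjusted p = 0.284). On the scale of the 75th percentile sham array 3, at 0.33, also lay above all TBI arrays of Kcnj5, which reached -1.13. Kcnk13 was 3.41, 3.42, 3.21 and 3.54 after TBI, against 2.69, 2.52 and 3.07 in 3 sham arrays and -1.28 in the third, the one that stood apart.

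The count in the cortex at 2 weeks depended on sham array 3. With it, the median of all probes lay at 0.95 between TBI and sham, and at 0.19 with the 75th percentile. Without it and at the 75th percentile, an alternative chosen after seeing the data, 19 of 94 channel genes were called, 3 higher and 16 lower, against 7.98% of all probes. Kcnn4 was then 2.33 ± 0.55 higher (limma, adjusted p = 0.0311), Kcnj5 1.52 ± 0.29 higher (adjusted p = 0.016) and Kcnk13 0.59 ± 0.14 higher (adjusted p = 0.0309). Among the deepest falls were those of Kcnh4 (-0.76), the T-type channel gene Cacna1g (-0.73), Cacng8 (-0.60) and Kcnh3 (-0.60). Leaving out that array alone, with the median scaling kept, gave 2 calls.

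Kcnn4 varied widely between groups. On the scale of the 75th percentile its group medians spanned 3.35 over the 15 groups of the cortex and 2.59 over the 9 groups of the hippocampus on the larger design, but the lowest medians, of sham cortex at 3 months and sham hippocampus at 2 weeks, include arrays that were not well above background. Kcne2, which was well above background on all 60 cortical arrays, spanned 3.08 in the cortex. The median span over channel genes was 0.94 in the cortex and 0.72 in the hippocampus, and the median SD among 4 arrays of a group was 0.23. In the cortex the level of Kcnn4 was highest after TBI at 24 hr and 2 weeks, and by 3 months its TBI arrays had fallen to 0.22, 0.85, 0.43 and 0.24. Sham arrays at 3 months were -0.05, 0.16, -0.19 and -0.28, just below them, with 2 of 4 well above background and no call (adjusted p = 1 by limma). At 6 months the TBI arrays were 0.34, 0.47, 1.49 and 2.26, sham arrays 0.89, 0.99, 0.99 and 0.77 and naive arrays 0.53, 0.77, 0.58 and 2.59, which overlapped. At 12 months the TBI arrays were 0.16, 0.47, 0.07 and 0.47 and the sham arrays 0.03, 0.33, 0.10 and 0.46, both below the naive arrays at 0.86, 1.63, 0.73 and 1.36. Kcnn4 was called lower than naive in both operated groups then (-0.85 ± 0.19, limma adjusted p = 0.025 after TBI, and -0.91 ± 0.19, adjusted p = 0.0215 after sham), which share the naive arrays. The operated groups also shared a slide that the naive arrays were not on, so slide and surgery cannot be told apart.

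In the hippocampus Kcnn4 was not well above background on many of the arrays later than 2 weeks. At 3 months, which was on the smaller design, no array of any group was well above background, so no difference is given. At 6 months the TBI arrays were -1.27, 0.04, 0.41 and 0.46, of which -1.27 was not well above background, and the sham arrays were -0.13, -0.30, -0.24 and -0.40, of which -0.13 and -0.40 were not. The naive arrays there ran from -0.90 to 4.74, and the array at 4.74, the third, also had the highest summed microglia and macrophage signal of its group (12.49, range 8.71 to 12.49). At 12 months the TBI arrays were -0.99, -1.11, -0.43 and -0.03 and the sham arrays -0.37, -0.58, -0.04 and -0.22, which overlapped. The plot of Kcnn4 and Kcnk13 gives every array.

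**Figure D4:**
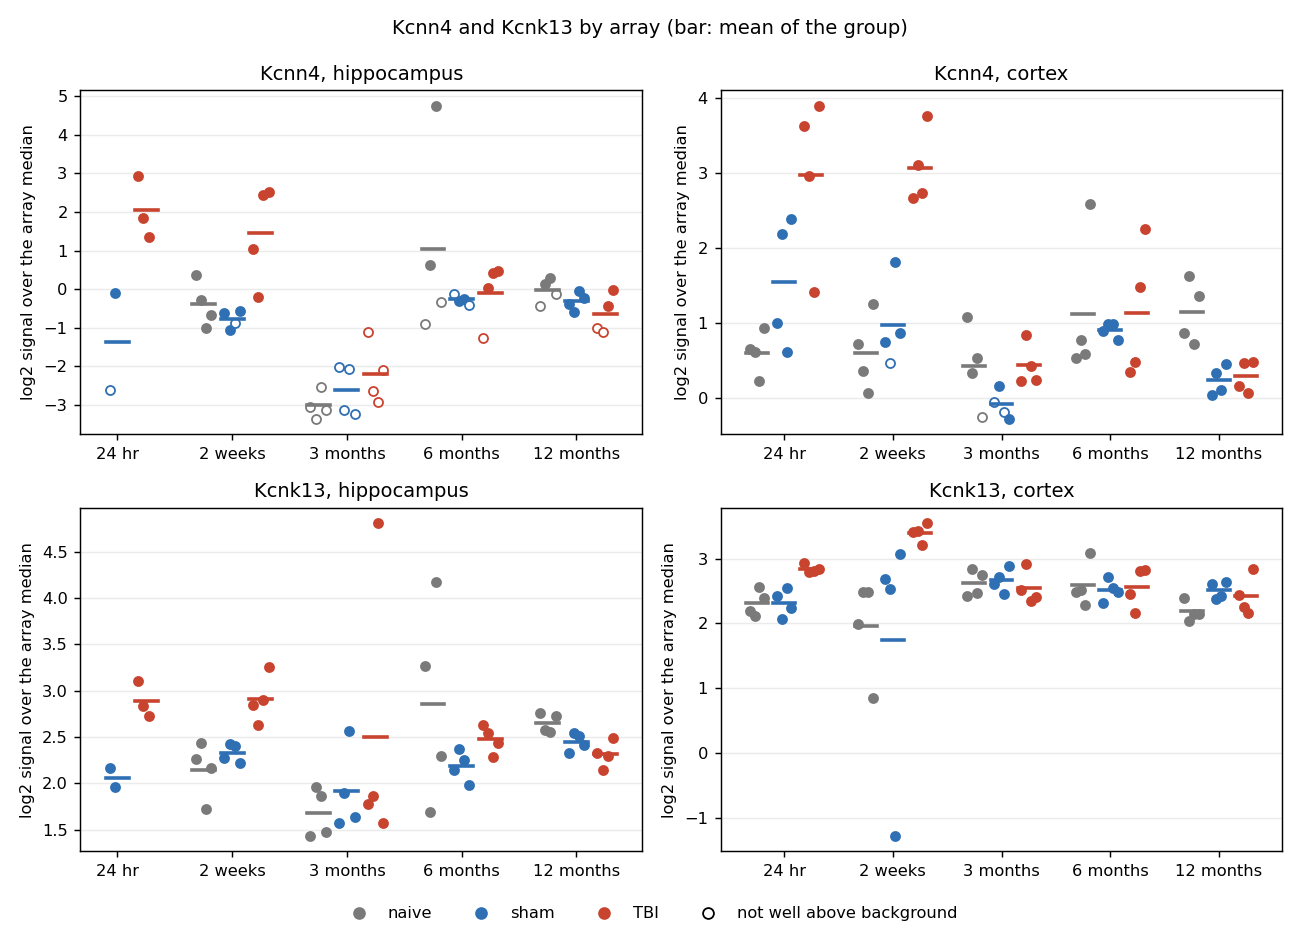
Log2 level over the array median of Kcnn4 and Kcnk13 in every array, by tissue, interval and group, with a bar at the mean of the group and open circles for arrays not well above background. The hippocampus at 24 hr and 3 months was on the smaller design and all else on the larger one, so levels cannot be compared between them. After TBI at 24 hr Kcnn4 reached 2.94 in the hippocampus, on the smaller design, and 3.90 in the cortex, on the larger one. The lowest Kcnk13 point of the cortex (-1.28) is the third sham array at 2 weeks.

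From 3 months on, no channel gene was called between TBI and sham in either tissue. By limma, 0 of 83 were called in the hippocampus at 3 months (0.0134% of all probes), 0 of 92 after 6 months (0.0134%) and 0 of 102 after 12 months (0%). The channel genes with an unadjusted p below 0.05 numbered 3, 3 and 15 at these intervals, where 6.12%, 2.87% and 14.5% of all probes had one. For the cortex the counts called were 0 of 94 at 3 months (0% of all probes), 0 of 102 after 6 months (0.0805%) and 0 of 102 after 12 months (0%). Here 2, 11 and 1 channel genes had an unadjusted p below 0.05, against 4.35%, 9.87% and 5.77% of all probes. Nearest to the threshold in the cortex at 6 months was Kcnh3, a channel of the ether-a-go-go family (-0.40 ± 0.12, limma adjusted p = 0.271). In the hippocampus at 12 months it was Kcnj4, an inward rectifier (0.45 ± 0.14, limma adjusted p = 0.258), followed by Kcna2, a pore of axons near the node of Ranvier (0.35 ± 0.11, adjusted p = 0.258). These values did not pass the test, which does not show that the groups were alike. Leaving out the second TBI array gave 1 call in the cortex at 6 months.

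The difference between the TBI effects of both tissues was tested where they share a design. By limma, 0 of 103 channel genes were called at 2 weeks, 0 of 102 after 6 months and 0 of 105 after 12 months, and 0%, 0.004% and 0% of all probes. An unadjusted p below 0.05 was found for 0, 2 and 11 channel genes, against 1.73%, 3.36% and 10.8% of all probes. At 6 months Cacnb4, a calcium channel beta subunit, came first, with a TBI effect 0.91 ± 0.30 higher in the hippocampus (limma, adjusted p = 1). By the animal numbers, both tissues came from the same rats at 2 weeks and 6 months, which the fit took as separate arrays. At 24 hr the tissues were on different designs and this was not tested.

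Operated and naive hippocampus also differed later. At 2 weeks, 5 of 98 channel genes were called after sham, 4 higher and 1 lower (5.10%, all probes 8.97%). Kcnj6, a G-protein-gated inward rectifier of dendrites, was 5.15, 5.07, 5.20 and 5.14 after sham, above all naive arrays at 4.7, 4.66, 3.66 and 4.16, by 0.85 ± 0.19 (limma, adjusted p = 0.0196). Kcnh7, Kcnq5 and the small-conductance channel Kcnn2 were higher by 0.74, 0.40 and 0.32, and Kcnj4 was lower (-0.40). The call of Kcnn2 was lost with the 75th percentile (adjusted p = 0.0528 by limma). After TBI at 2 weeks, 17 of 102 were called against naive, 2 higher and 15 lower (16.7%, all probes 12.8%). Kcnn4 (1.85 ± 0.52, limma adjusted p = 0.0395) and Kcnk13 (0.76 ± 0.16, limma adjusted p = 0.0124) were higher, while Kcnip1 (-0.74), Kcnmb2 (-0.50) and Kcnh3 (-0.49) were the lowest of the 15. With the 75th percentile the counts were 3 higher and 3 lower for sham (all probes 11.8%), and 2 higher and 6 lower for TBI (all probes 9.46%). TBI and naive lay on different slides there, as did sham and naive. Leaving out naive array 1, 2, 3 or 4 gave 10, 7, 9 and 10 calls of TBI against naive, and TBI array 1, 3 or 4 gave 11, 4 and 4. For sham against naive, leaving out naive array 1, 3 or 4 gave 1, 2 and 1 calls, and sham array 1, 2, 3 or 4 gave 3, 2, 0 and 0.

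At 6 months, 8 of 89 channel genes were higher after sham than in naive hippocampus and 0 lower (8.99%, all probes 3.54%), and after TBI 5 of 92 were higher and 0 lower (5.43%, all probes 3.82%). Both comparisons use the same 4 naive arrays. Cacna1a, the P/Q-type channel of presynaptic terminals, was 3.03, 3.11, 2.56 and 2.51 after sham and 3.01, 2.79, 2.61 and 2.27 after TBI. Naive arrays were lower, at 1.63, 1.18, 1.19 and 0.75, the last not well above background, so that the difference was 1.61 ± 0.23 for sham (limma, adjusted p = 0.000253) and 1.48 ± 0.23 for TBI (adjusted p = 0.00119). Hcn2 was 2.80, 2.84, 2.96 and 3.23 after sham, 2.95, 3.06, 2.65 and 2.79 after TBI, and 2.10, 1.95, 1.59 and 1.58 in naive rats. It was higher by 1.15 ± 0.20 (limma, adjusted p = 0.00139) and 1.06 ± 0.20 (adjusted p = 0.00404). Other calls after sham were Cacng8 (1.15), Kcnk4 (0.89), Kcnj4 (0.84), Kcnt2 (0.80) and Kcnab2 (0.76), and after TBI Kcnab2 (0.95), Kcnk1 (0.79) and Kcnt2 (0.72), of which Kcnt2 lost its call after TBI with the 75th percentile (adjusted p = 0.067 by limma).

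These counts depended on the scaling and on the naive arrays. The median of all probes moved from 0.10 to -0.02 between both scalings for sham, and from 0.13 to -0.03 for TBI. Under the 75th percentile 22 were called for sham (19 higher, 3 lower, all probes 18.3%) and 12 for TBI (7 higher, 5 lower, all probes 13.3%). Without naive arrays 2 and 4 at the 75th percentile, chosen after seeing the data, the counts were 15 (13 higher, 2 lower, all probes 15.5%) and 9 (7 higher, 2 lower, all probes 11.8%). Kcnk13 was then lower in both operated groups (-1.37 ± 0.25, limma adjusted p = 0.00813, and -1.12 ± 0.25, adjusted p = 0.0231). The naive arrays left in that comparison are arrays 1 and 3, at 3.27 and 4.17 for Kcnk13 over the array median, of which array 3 had the highest microglia and macrophage signal. Leaving out the first naive array alone gave 25 calls for sham and 14 for TBI, the second 13 for sham, and the fourth 5 and 3. Leaving out sham array 1, 2, 3 or 4 gave 5, 4, 5 and 3, and TBI array 1 or 2 gave 2 each. The share of all probes called is not given for the fits with single arrays left out.

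At 12 months few members differed from naive. In the hippocampus Kcnh7 was higher after TBI (0.64 ± 0.13, limma adjusted p = 0.0341), 1 of 97 against 2.12% of all probes, and limma called 0 of 101 after sham (3.11% of all probes), with an unadjusted p below 0.05 for 13, against 21.6% of all probes. In the cortex 3 of 102 were called after sham (2.94%, all probes 4.35%) and 3 of 99 after TBI (3.03%, all probes 5.3%). Beside Kcnn4, these were Cacna1c, higher in both (0.62 and 0.57), Kcng3 (0.85) after sham and Kcnj6 (0.43) after TBI. In both tissues at 12 months the naive arrays lay on another slide than the operated groups, so slide and surgery cannot be told apart. With the 75th percentile the split after sham was 1 higher and 1 lower (all probes 4.38%), without Kcng3 (adjusted p = 0.0563 by limma). The call of Kcnh7 was lost without naive array 2, 3 or 4, or TBI array 1, 2 or 4. In the cortex, leaving out the second naive array gave 5 calls after sham and 4 after TBI, and any other array 0 to 2. After sham in the hippocampus, leaving out the first naive or the fourth sham array gave 1 call. At 3 months limma called 0 of 90 after sham in the hippocampus (0% of all probes) and 0 of 89 after TBI (0.0062%), with 10 and 2 channel genes at an unadjusted p below 0.05, against 5.7% and 3.06% of all probes. In the cortex after sham, 0 of 97 were called at 2 weeks (0% of all probes), 0 of 91 at 3 months (0.409%) and 0 of 99 at 6 months (0%). There 0, 4 and 4 channel genes had an unadjusted p below 0.05, against 0.0487%, 9.07% and 6.76% of all probes. After TBI, 0 of 99, 0 of 94 and 0 of 102 were called at those intervals (0.12%, 0.561% and 0.253% of all probes). There 3, 7 and 11 had an unadjusted p below 0.05, against 3.42%, 10.8% and 11.8% of all probes. Leaving out the fourth naive array at 3 months gave 2 calls after sham and 2 after TBI.

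The most calls among these genes were between the tissues of naive rats at 12 and 6 months. At 12 months, 60 of 99 channel genes were called, 22 higher and 38 lower in the hippocampus than in the cortex (60.6%, all probes 37.4%). The share lower in the hippocampus was 38.4% against 12% of all probes, and the share higher was 22.2% against 25.3%. Hippocampal and cortical arrays did not overlap for 51 of the 99 (51.5%), against 37.5% of all probes. The tissues were hybridized on different slides and scanned on different days, so slide, scan day and tissue cannot be told apart. By the animal numbers that the deposited arrays carry, both tissues came from the same 4 naive rats at each of 2 weeks, 6 and 12 months, while the fit took the arrays as separate. With the rat as a block, 11, 46 and 64 channel genes were called at these intervals.

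Kcns1 was 2.20, 2.45, 2.72 and 2.55 in hippocampal arrays against 5.90, 6.36, 5.26 and 6.26 in cortical ones. No arrays overlapped, and the difference of -3.46 ± 0.23 (limma, adjusted p = 8.19e-06) was the largest among the 99. Scn4b was 4.99, 5.53, 5.35 and 5.43 against 7.74, 7.75, 7.25 and 7.59, or -2.26 ± 0.15 (limma, adjusted p = 9.94e-06). Kcng2, a silent subunit, went the other way, at 7.12, 7.32, 7.06 and 7.18 in the hippocampus against 4.96, 4.99, 4.80 and 4.87 in the cortex. It was 4.80-fold higher (2.26 ± 0.10, limma adjusted p = 9.02e-07). Scn3b was 8.23, 8.41, 8.21 and 8.32 against 6.46, 6.30, 6.06 and 6.19, or 2.04 ± 0.11 higher (limma, adjusted p = 3.01e-06). Scn2b, another sodium channel beta subunit, was not called (0.20).

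Lower in the hippocampus were also Kcnab3 (-1.82), Kcnt1, a sodium-activated potassium channel (-1.81), Kcnk3 (-1.69), Kcnh4 (-1.67), Kcnf1 (-1.57), Kcnh7 (-1.54), Scn1a (-1.52) and Cacna1g (-1.19). Kcnk3 was well above background in 1 of 4 hippocampal arrays and entered the test through the cortex, so its difference rests on dim signals. Cacna1s was not well above background in any hippocampal array and also entered the test through the cortex, where it was higher. Set against the background floor of the hippocampal arrays, it was at least 1.38-fold lower there. Its limma adjusted p of 0.00347 belongs to the fitted difference, which rests on dim signals, and not to that bound. Higher were Kcng1 (1.93), the inward rectifier Kcnj16 (1.85), Kcnk16 (1.48), the small-conductance channel Kcnn3 (1.32), the T-type channel Cacna1h (1.29), Cacng7 (1.18), Kcnab1 (1.11), Kcnq3 (1.02) and Cacng8 (0.91). In the hippocampus at that interval the choroid plexus and ependyma markers had summed signals of 6.57 to 12.89 against 4.05 to 5.38 in the cortex, and 4 of the 4 tested were higher. Microglia and macrophage markers were higher in 7 of 12 cases (9.39 to 10.06 against 8.74 to 9.29), and interneuron markers lower in 4 of 9 (10.28 to 10.65 against 10.88 to 11.26). The part of these markers in single genes was not tested.

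**Figure D5:**
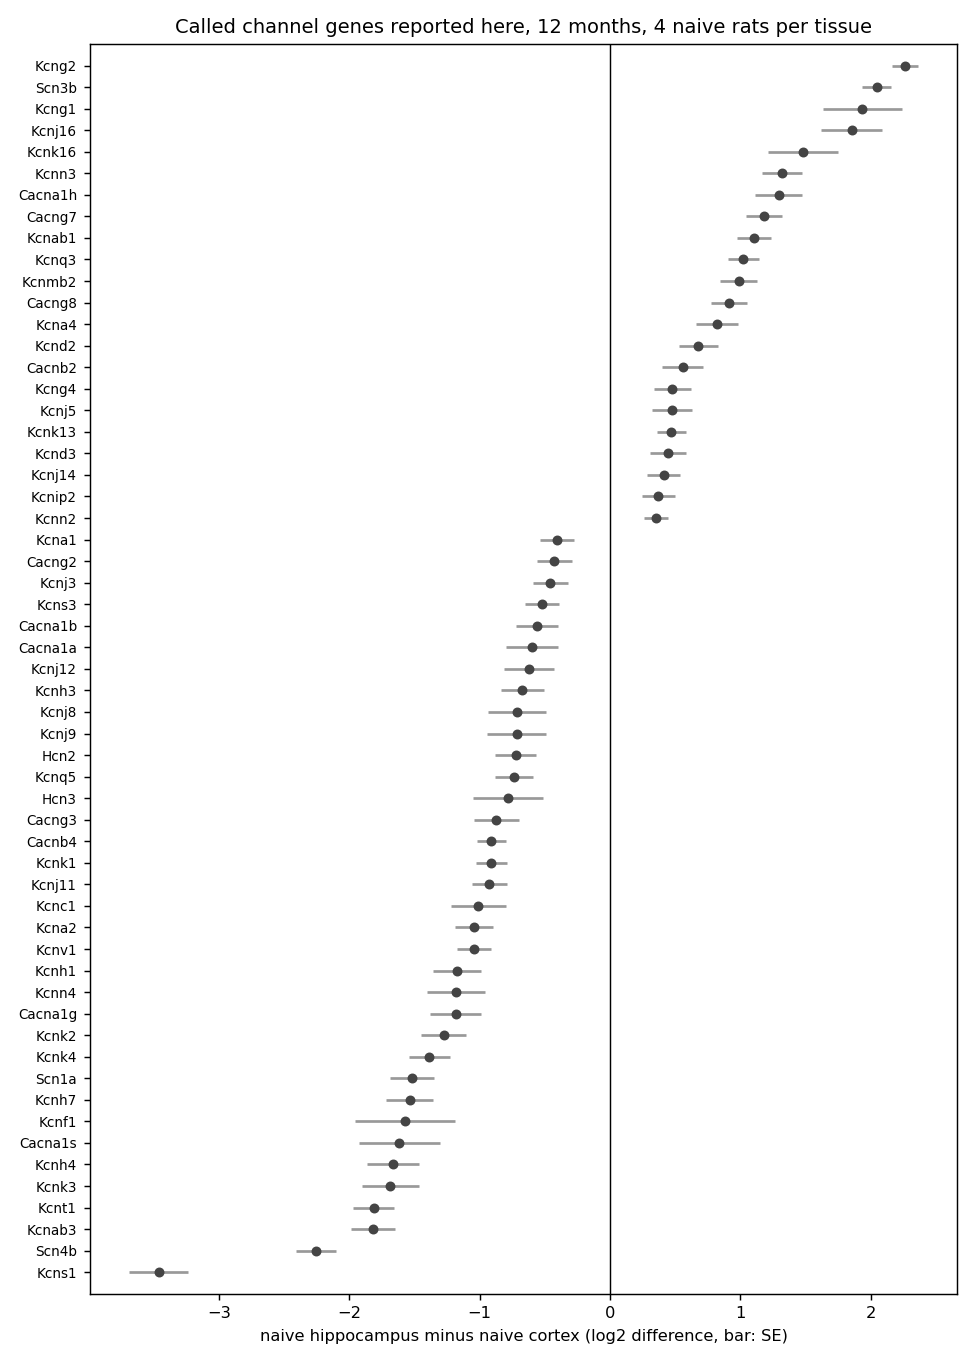
Log2 difference between naive hippocampus and naive cortex at 12 months (4 arrays per tissue) for channel genes called by limma and reported here, with bars for the SE. Kcns1 lay lowest at -3.46 and Kcng2 highest at 2.26. The points of Kcnk3 and Cacna1s rest on dim hippocampal signals.

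At 6 months, 50 of 99 were called between the naive tissues, 10 higher and 40 lower (50.5%, all probes 16.6%). Of these, 42 were called at 12 months too, which is 84.0% of the 50 and 70.0% of the 60, and all 42 had the same direction, 9 higher and 33 lower. The same overlap was not counted over all probes, of which 16.6% were called at 6 months and 37.4% at 12 months. The 2 intervals use different rats. With the 75th percentile, 64 channel genes were called at 6 months, 15 higher and 49 lower, while 40.1% of all probes were. The naive hippocampal arrays at 6 months include the second, with 72.4% of its probes well above background, and the fourth, with 41.2%. At 2 weeks, 10 of 100 were called, 6 higher and 4 lower (10%, all probes 5.01%). The cortical naive arrays of that interval include 1, the fourth, with 65.2% of its probes above background, and the median of all probes lay at 0.44 with the median scaling and at -0.01 with the 75th percentile, under which 41 were called, 13 higher and 28 lower (all probes 19%). Leaving out that cortical array gave 32 calls, and the first or second hippocampal array 5 each. With the median scaling, limma gave nearly all probes the same SE, 0.40 at 2 weeks and 0.29 at 6 months. The adjusted p-values of those fits rest on that common spread. Called at all 3 intervals were Cacna1h, Kcnab1, Kcng2 and Scn3b, higher in the hippocampus, and Kcnf1, Kcns1, Kcnt1 and Scn4b, lower, again without a count over all probes. Kcns1 differed by -2.53, -2.75 and -3.46 and Kcng2 by 2.36, 1.74 and 2.26 at 2 weeks, 6 months and 12 months.

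The genes that anchor, phosphorylate or sort these channels were read beside them, from a list of 30 of which 27 were on the arrays. In the hippocampus at 24 hr, 2 of 24 tested were lower after TBI than sham, a share near the 8.07% of all probes: Ank3, which encodes ankyrin-G, the scaffold of the axon initial segment (-0.81 ± 0.19, limma adjusted p = 0.0447), and Cntn2, a cell adhesion molecule of the node of Ranvier region (-0.80 ± 0.16, adjusted p = 0.026). In the other 9 comparisons of TBI with sham limma called 0. An unadjusted p below 0.05 was found for 11 of 26 in the hippocampus at 2 weeks. No share of all probes is given here for that count, so it is not read as a result about the list. The median difference of the 26 was -0.20 there, against -0.11 over all probes. In the hippocampus at 12 months an unadjusted p below 0.05 was found for 9 of 26, against 14.5% of all probes. Elsewhere it was 0 to 2 of the list, against 2.87% to 20.8% of all probes. Against naive in the cortex at 24 hr, 7 of 26 were lower after TBI (all probes 11.1%), among them Akap5 (-0.96), Fgf13 (-0.65) and Ank3 (-0.51). After sham 8 of 26 were lower (all probes 18.3%), among them Akap5 (-1.20) and Sptbn4 (-0.83), the spectrin of the axon initial segment. With the 75th percentile the call of Akap5 was lost in both (adjusted p = 0.058 and 0.0822 by limma), while that of Sptbn4 after sham was kept (adjusted p = 0.0412).

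The other 23 members of the 131 were not well above background in every array of any group. They include Hcn4, the inward rectifiers Kcnj1, Kcnj2 and Kcnj15, the potassium channel genes Kcna3, Kcna7 and Kcna10, the sodium channel pores Scn4a, Scn9a, Scn10a and Scn11a, and Cacna1f. No difference is given for them. On the larger design, 78 of 107 detected genes were well above background on every cortical array and 81 on every hippocampal array.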

How the data were processed

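Each sample was 1 single-dye Agilent array. The authors deposited the scanner output, in which the processed signal is a background-subtracted intensity, and a table of normalized intensities. Per the methods those were divided by the array's median, but the deposited values match division by its 75th percentile. No hybridization had been pooled. Samples were grouped by the labels.

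Processed signals of repeated spots were averaged, log2 was taken and the array's median over non-control probes was subtracted. Probes were tested that were well above background on each array of 1 or more of the compared groups. Probes were named through RefSeq. All groups of a tissue and interval were fitted together in limma 3.58.1 (R 4.3.3) with Benjamini-Hochberg adjustment, and an adjusted p under 0.05 was called. The fit was tested on simulated data. Tables and figures used Python 3.11.15, pandas 2.3.3 and matplotlib 3.10.9. Saturated probes numbered 0, and the number of arrays limits the precision. P-values rest on the spread between the rats of a group, which limma moderates over all probes. In the naive tissue fits at 2 weeks and 6 months nearly all probes were given the same SE. Fits across the tissues took both tissues of a shared rat as separate arrays.

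Members and lists were chosen with earlier results of these data known. Genes were named by rule: fixed genes of each family, the 8 largest called rises and falls of a comparison, and the 3 lowest p where none was called. Members outside it (among them Kcnk13 in the cortex at 2 weeks and the 12-month Cacng8, Cacna1g and Kcnq3) were named after their values were seen. A few members are counted but not reported here by name. Alternatives were the 75th percentile, quantile normalization, the authors' values, normexp background (offset 50, on the median signals), no filter on dim probes, all probes of a gene, a fit of the compared groups alone, a fold of 1.4 with an unadjusted p as in the study's methods, the replicate number as a block, and leaving out each array. Same-numbered arrays deviated together (every correlation over 0.1) in 4 of 31 comparisons, among them the naive tissues at 2 weeks and 12 months but not at 6 months. The arrays' own animal numbers put both tissues of the naive rats in the same animals.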

Additional observations from a re-analysis of the deposited data

Results flagged for a closer look

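Within groups of 4 arrays, single arrays far from the other 3 were searched for by Dixon's gap test, which by chance marks about 1 in 20 groups. Of 86 gene and group pairs checked, 4 were marked, and of 27 groups checked for the percent of probes well above background, 4. In the cortex at 2 weeks the third sham array had 93.0% of its probes well above background (the others 42.3% to 50.3%), a Kcnh4 level of -0.087 (others 4.79 to 5.10) and a Kcnk13 level of -1.28 (others 2.52 to 3.07). Kcnh4 was also low in the second TBI array of that interval, at 3.72 (others 4.27 to 4.38). Kcnn4 was high in the fourth naive array of the cortex at 6 months, at 2.59 (others 0.53 to 0.77). The percent of probes well above background was 59.7% in the second TBI array of the cortex at 6 months (others 57.5% to 57.7%), 58.6% in the second naive array of the hippocampus at 3 months (others 55.7% to 55.9%) and 46.4% in the third sham array of the hippocampus at 2 weeks (others 59.2% to 60.9%).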

How the results depend on the processing

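Counts of called channel genes are given here where they moved by more than 1.5 times, and the cause was not tested. No share of all probes stands beside the counts of this section. They show how far a count depends on the processing and are not a result about channel genes. With the 75th percentile, the authors' values and quantile normalization, in that order, they were 2, 2 and 0 for TBI against sham in the hippocampus at 2 weeks; 22, 21 and 20 for sham against naive in the hippocampus at 6 months; 3, 3 and 3 for sham against naive in the cortex at 24 hr; 8, 8 and 6 and 12, 12 and 11 for TBI against naive in the hippocampus at 2 weeks and 6 months; 1, 1 and 1 for TBI against naive in the cortex at 3 months; and 41, 40 and 36 between the naive tissues at 2 weeks. Quantile normalization also gave 1 for sham against naive in the cortex at 12 months. The median of all probes moved by over 0.1 with the 75th percentile in several comparisons. Beside those given above, it moved from -0.14 to -0.01 for TBI against sham in the hippocampus at 3 months and from 0.12 to -0.02 in the cortex at 24 hr; in the cortex from -0.51 to -0.22 and from -0.11 to 0.00 for sham against naive and from 0.41 to -0.06 and from -0.08 to 0.02 for TBI against naive, at 2 weeks and 3 months; from -0.07 to 0.03 between the naive tissues at 6 months; and from -1.01 to -0.15 for the difference of TBI effects at 2 weeks.

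With normexp background the counts were 5 for TBI against sham in the cortex at 24 hr, 15, 3 and 12 for sham against naive (hippocampus at 6 and 12 months, cortex at 12 months), 1, 16, 5, 21 and 6 for TBI against naive (hippocampus at 2 weeks, 6 and 12 months, cortex at 24 hr and 12 months), and 17 between the naive tissues at 2 weeks. With no filter on dim probes, TBI against sham gave 0 and 0 (hippocampus at 24 hr and 2 weeks) and 8 and 7 (cortex at 24 hr and 2 weeks). Sham against naive gave 0, 0 and 11 (hippocampus at 2 weeks, 6 and 12 months) and 6 and 8 (cortex at 24 hr and 12 months), TBI against naive 3, 0 and 0 (hippocampus at 2 weeks and 6 months, cortex at 12 months), and the naive tissues 3 and 25 (2 weeks and 6 months). All probes of a gene gave 1 (hippocampus at 12 months, sham against naive) and 5 (cortex at 12 months, TBI against naive). A fit of the 2 compared groups gave 0 for TBI against sham in the hippocampus at 2 weeks, 1, 4 and 1 for sham against naive (hippocampus at 2 weeks and 6 months, cortex at 12 months), and 8, 3, 0, 3, 1 and 0 for TBI against naive (hippocampus at 2 weeks, 6 and 12 months, cortex at 2 weeks, 3 and 12 months).

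A fold of 1.4 with an unadjusted p gave, for TBI against sham, 9, 3 and 6 (hippocampus at 2 weeks, 6 and 12 months) and 6, 2, 2, 5 and 1 (cortex in order of interval). For sham against naive it gave 5, 32 and 2 (hippocampus at 3, 6 and 12 months) and 2, 4 and 5 (cortex at 3, 6 and 12 months). For TBI against naive it gave 10 and 21 (hippocampus at 2 weeks and 6 months) and 3, 6, 8 and 8 (cortex at 2 weeks, 3, 6 and 12 months), and 34 between the naive tissues at 2 weeks. Between the TBI effects of both tissues it gave 2 and 5 at 6 and 12 months. The alternatives chosen after seeing the data gave 19 for TBI against sham in the cortex at 2 weeks, and 15 and 9 for sham and TBI against naive in the hippocampus at 6 months.

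The replicate number as a block, within a tissue only a number in the labels, moved 4 of 34 counts, to 1 for TBI against sham in the hippocampus at 24 hr and, at 2 weeks, to 0 for TBI against sham, 2 for sham against naive and 7 for TBI against naive. In the naive tissues, where same-numbered arrays came from the same rat, the block gave 11, 46 and 64 calls at 2 weeks, 6 and 12 months, and 45 at 2 weeks with the 75th percentile. The slide as a block was not run, since each group lay on 1 slide.

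Leaving out 1 array gave 1 to 11 and 0 to 8 calls for TBI against sham in the hippocampus at 24 hr and 2 weeks, and 0 to 2, 0 to 2 and 0 to 1 in the cortex at 24 hr, 2 weeks and 6 months. For sham against naive it gave 0 to 5, 3 to 25 and 0 to 1 (hippocampus at 2 weeks, 6 and 12 months) and 13 to 29, 0 to 2 and 0 to 5 (cortex at 24 hr, 3 and 12 months). For TBI against naive it gave 4 to 14, 2 to 14 and 0 to 2 (hippocampus, the same intervals) and 16 to 42, 0 to 2 and 0 to 4 (cortex, the same intervals). Between the naive tissues it gave 5 to 32, 41 to 56 and 46 to 58 at 2 weeks, 6 and 12 months, and 0 in every other comparison. Among single genes, the direction turned for Kcne5 (0.045) and Kcnk3 (0.45) between sham and naive in the cortex at 2 weeks with the authors' values, and for Cacna1h there with single arrays left out (-2.43 to 0.12, the latter without the third sham array). In the difference of TBI effects at 2 weeks it turned for Kcnk6 (0.19 with the 75th percentile, 0.31 with quantile normalization, 0.77 with the authors' values), Kcnc2 (0.026) and Kcnd3 (0.11, both with the authors' values). Dim genes such as Kcnn4 and Kcnq1 are limited by signal over background.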
